A study of Mus musculus with 6 samples.

Results

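The cytosolic ribosomal protein genes encode the proteins of the ribosome outside mitochondria, with Rps genes for the small subunit and Rpl genes for the large one. They were chosen by symbol (Rps or Rpl with a number, together with Rplp0, Rplp1, Rplp2, Rpsa and Rps27a). Only pseudogene symbols that end in -ps with digits were left out. RefSeq lists Rps3a2, Rps3a3 and Rpl6l, which the rule kept, as pseudogenes and Rps4l as a transcribed pseudogene. The rule itself uses no measured value, but it was set with earlier results of these data known. The rule gave 87 genes in the reference name table, of which 67 had an identifier in the event tables, among 32348 identifiers in all. Of these, 62 passed the filter on low values (0.5 FPKM or more on average, where FPKM is the fragments mapped per kilobase, scaled to the library) and were tested among 11368 genes, 28 of the small subunit and 34 of the large one. Not all genes of the family are therefore covered by the tests, and the 25 others are accounted for below.

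All mice were male, of the strain C57BL/6 and 14 months old, and were injected daily under the skin for 14 days before RNA was sequenced. The DHT group (3 libraries) received dihydrotestosterone, an androgen that aromatase does not turn into oestrogen, and the oil group (3 libraries) received medical corn oil. The tissue is hippocampus per the labels. The libraries are called 1 to 3 in each group for naming only. The labels do not say whether a library holds 1 mouse, so a p-value here speaks of the spread among the 6 libraries and may hold technical spread alone.

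A ribosome needs each of its proteins in about equal number, and the cell makes them from single genes scattered over the genome. Their mRNAs are among the most heavily translated, and most begin with a run of pyrimidines at the cap (a terminal oligopyrimidine tract, TOP) through which the kinase complex mTORC1 controls their translation. In neurons ribosomal protein mRNAs are also found in axons and dendrites. Several of the genes carry small nucleolar RNAs (snoRNAs), which guide the chemical modification of ribosomal RNA, within their introns.

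The start of the gene is where a TOP tract would lie. The sequences there are shown for the named genes with the smallest p-values in each direction, so that a reader can see pyrimidine runs near that start. The windows are from RefSeq (GRCm38.p6) on the transcribed strand, 5′ to 3′, with 10 bases before the RefSeq start and 20 from it on. Capitals mark the tract searched for, which is a C followed by at least 4 pyrimidines with its first base within 10 bases of the start on either side. RefSeq held a window for 14 of these 16 genes, and 5 of the 14 held the tract. This search is looser than a TOP tract, which begins at the cap. In Rpl10a the run began at base -9 from the RefSeq start and in Rpl36a at base 9, and in neither did it cover the start.
Rps10 (chr17:27635225-27635254, minus strand): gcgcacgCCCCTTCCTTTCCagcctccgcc
Rpl28 (chr7:4792955-4792984, plus strand): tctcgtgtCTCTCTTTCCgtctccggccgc
Rps15a (chr7:118116128-118116157, minus strand): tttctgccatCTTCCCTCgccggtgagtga
Rpl10a (chr17:28328461-28328490, plus strand): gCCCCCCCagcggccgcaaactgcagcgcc
Rpl36a (chrX:134585644-134585673, plus strand): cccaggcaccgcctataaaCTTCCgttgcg
Rps15 (chr10:80292421-80292450, plus strand): cagagctcgcgataactgcgcaagcgcagc
Rplp0 (chr5:115559457-115559486, plus strand): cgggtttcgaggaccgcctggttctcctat
Rps19 (chr7:24884582-24884611, plus strand): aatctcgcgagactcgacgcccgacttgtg
Rpl41 (chr10:128549149-128549178, minus strand): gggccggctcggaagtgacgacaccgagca
Rps3 (chr7:99483690-99483719, minus strand): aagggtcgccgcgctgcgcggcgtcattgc
Rps28 (chr17:33824543-33824572, minus strand): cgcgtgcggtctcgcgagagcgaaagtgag
Rpl23 (chr11:97782420-97782449, minus strand): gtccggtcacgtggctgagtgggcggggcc
Rpl35a (chr16:33056443-33056472, plus strand): gcgtgcgtcccacaaggccgcgcggcgggg
Rpl4 (chr9:64173377-64173406, plus strand): tttcctgtgggagcagccgggtagagagga

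Of 63 ribosomal protein genes with a RefSeq promoter entry, each counted with 1 promoter, 36 (57.1%) held the tract near the start. The share was 30.7% over all 32851 promoters and 41.3% over 75 promoters of mitochondrial ribosomal proteins, whose mRNAs feed a separate ribosome. These comparison shares count promoters, not genes, so the units differ. At the start base itself the tract was found in 13 of the 63 (20.6%), in 2.51% of all promoters and in 0 of the 75. Rps10, Rpl28 and Rps15a were among the 13. A missing match says only that these letters are not near this start: in 17 of 49 tested genes with an entry the most used first exon of the libraries began within 10 bases of the RefSeq start, and in Rps19 it began 221 bases away. The tract was found with genes of either direction, as the windows of Rps10 and Rpl28 (higher with DHT) and of Rps15a and Rpl36a (lower) show.

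The libraries summed to between 87148 and 96063 FPKM over all gene values, and each DHT library was above each oil library, by 8.52% on average. The depth behind each FPKM value is unknown. Of 8 hippocampal excitatory neuron markers 6 had a mean over 1 FPKM, and of 9 striatal markers 8 did, with Drd1 at 0 in each library. The summed markers ran over the 6 libraries from 182.5 to 390.6 FPKM for hippocampal excitatory neurons and from 185 to 349 FPKM for striatal neurons, in tissue labelled hippocampus. No marker list of 9 cell types separated the groups. The summed erythroid markers, which come from blood, ran from 347 to 1039 FPKM in DHT and from 193 to 358 in oil, and the choroid plexus markers from 0.939 to 30.7 and from 3.11 to 79.3. Their part in the results was not tested.

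Ribosomal protein genes took nearly the same share of each library in both groups. In DHT libraries 1 to 3 their summed values were 1868, 1898 and 1858 FPKM, and in oil libraries 1 to 3 they were 1761, 1687 and 1667 FPKM. The sums did not overlap, with 1875 ± 20.7 FPKM in DHT and 1705 ± 49.8 in oil (SD, n = 3 each), a difference of 9.94%. As a share of all gene values they were 1.969%, 1.975% and 1.943% in DHT and 1.966%, 1.933% and 1.912% in oil, and these shares overlapped. The small subunit summed to 919 ± 27.2 FPKM in DHT and 816 ± 12.2 in oil, and the large one to 955 ± 8.83 and 889 ± 39.9 (SD, n = 3 each). An exact permutation test of 3 against 3 libraries cannot go below p = 0.1, so none is given for these sums. In a bulk sample, fewer cells of a type and less RNA per cell cannot be told apart.

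**Figure D1:**
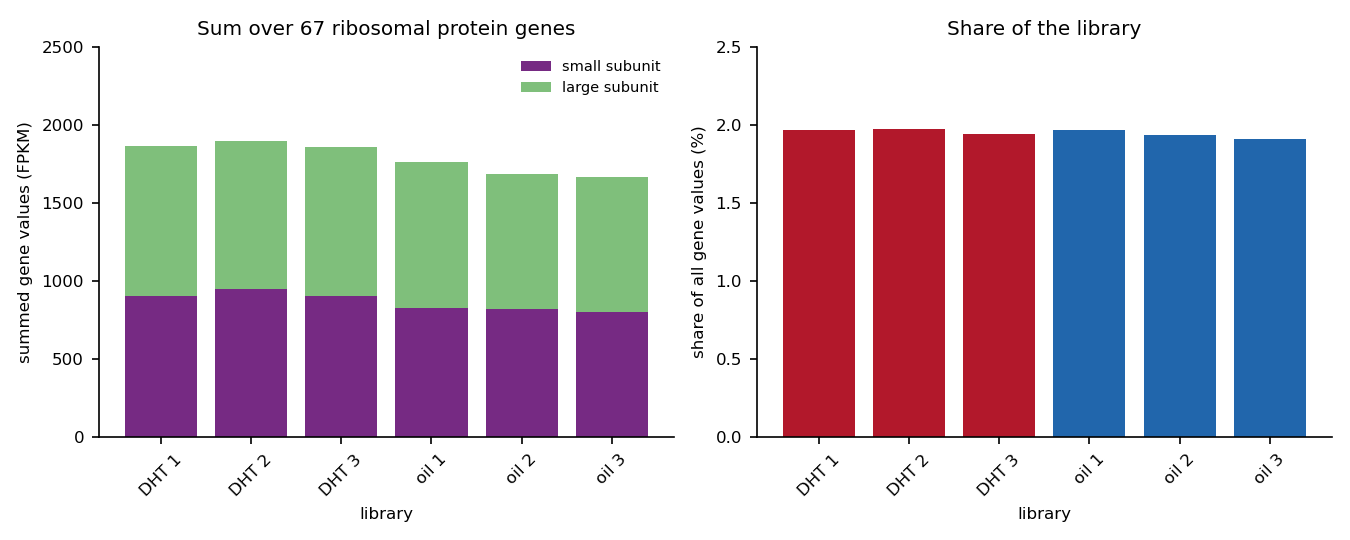
Left: summed gene values in FPKM of the ribosomal protein genes in each of the 6 libraries, stacked by subunit. Right: the same sum as a percentage of all gene values of the library, from 1.912% to 1.975%. The DHT sums (1858 to 1898 FPKM) lie above the oil sums (1667 to 1761 FPKM), while the shares overlap.

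The 62 tested genes differed far more among themselves than between libraries. Their means over the 6 libraries ran from 1.08 to 110.5 FPKM with a median of 24.03, against 3.78 FPKM for all genes tested. A mean of at least 10 FPKM was reached by 52 of them and at least 50 FPKM by 9, while 3 (Rpl35a, Rps27l and Rps12) were under 5 FPKM. The lowest, Rps12 at 1.08 FPKM, is an identifier that holds only a locus on the strand opposite to the gene, and the locus at the place of Rps12 had a mean of 25.2 FPKM. The highest, Rps15, ranked 56 among all genes. None of the 62 was listed at 0 in any library. The median coefficient of variation within a group was 11.02% over all 62, genes under 10 FPKM included. It was 12.1% over the 2173 genes at 10 FPKM or more, so the sets differ in level.

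**Figure D2:**
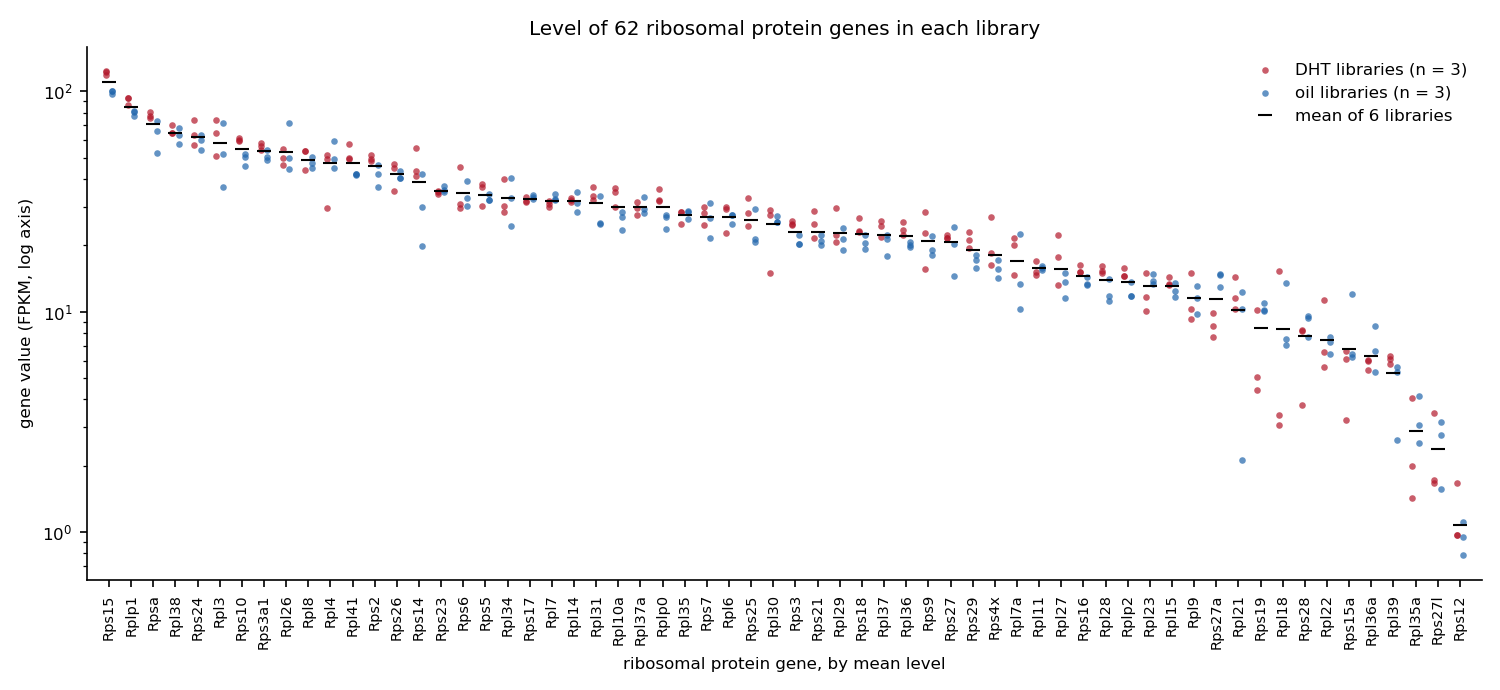
Gene value in FPKM (log axis) of the 62 tested ribosomal protein genes, ordered by mean, with 1 point per library (red for DHT, blue for oil, n = 3 each) and a black bar at the mean of 6. Levels run from 1.08 FPKM (the opposite-strand locus under the Rps12 identifier) to 110.5 FPKM. The points of most genes lie close together, with wide scatter in Rpl18, Rpl21, Rps15a, Rpl35a and Rps27l, among others.

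Rps15, a protein of the head of the small subunit, was the highest and the steadiest of the family. It was at 122.8, 123.4 and 118.5 FPKM in DHT and 97.2, 100.4 and 100.7 in oil, with the lowest within-group coefficient of variation (2.10%). Rplp1, of the stalk that recruits elongation factors, followed with 93.3, 93.2 and 86.6 FPKM in DHT and 81.1, 77.2 and 80.5 in oil. Both were higher in each DHT library than in any oil library. Rpsa, a small subunit protein also known as the laminin receptor, was at 75.6, 77.6 and 80.5 FPKM in DHT and 73.4, 66.1 and 52.7 in oil, and also did not overlap. The means of Rpl38 (64.9 FPKM), Rps24 (61.9), Rpl3 (58.5), Rps10 (54.8) and Rps3a1 (53.7) came next, and the spreads of these neighbours overlapped.

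The next comparison asked which of these genes differ between DHT and oil. No ribosomal protein gene passed an adjusted p of 0.05 in limma (0 of 62), where 2 of 11368 genes did (0.0176%), and the lowest adjusted p among them was 0.565 (Rps27a). At an unadjusted p under 0.05, 11 (17.7%) were higher in DHT, where 5.79% of all genes were, and 2 (3.23%) were lower, where 1.55% were. All 11 were among the 52 ribosomal protein genes at 10 FPKM or more. Of all 2173 genes of that level, 235 were higher at that p. The 2 lower ones were Rps27a and Rps19. The total of 13 went down to 7 without DHT library 1, without DHT library 2 or without oil library 3, and to 4 (2 higher and 2 lower) with DHT library 2 and oil library 3 both left out. With each library centred on its median, 4 were higher, where 3.16% of all genes were, and 2 were lower, where 2.87% were.

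Counting genes whose groups did not overlap, 17 of 62 (27.4%) lay higher in DHT, where 12% of all genes did, and 2 (3.23%), Rps27a and Rpl7, lay lower, where 3.15% did. After centring, 12 lay higher, where 6.97% of all genes did, and 5 lower, where 6.08% did. The fold change was above 0 in 43 of 62 (69.4%) and in 63.6% of all genes, and after centring in 38 of 62 (61.3%) and in 51.4% of all genes.

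The median log2 fold change was 0.13 over the 62 genes and 0.07 over all genes tested. After centring the medians were 0.07 and 0.01. The small subunit genes had a median of 0.16 with 21 of 28 higher, and the large subunit genes 0.08 with 22 of 34 higher; the difference between the subunits was not tested. Beside genes of like level, the 52 ribosomal protein genes at 10 FPKM or more had a median of 0.16 with 76.9% higher, and the 2173 genes of that level had 0.11 with 72.9% higher. The 10 under 10 FPKM had a median of -0.30, with 3 above 0. One of these 3 was the opposite-strand locus of Rps12 (0.22), and the locus at the place of Rps12 was at -0.51.

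**Figure D3:**
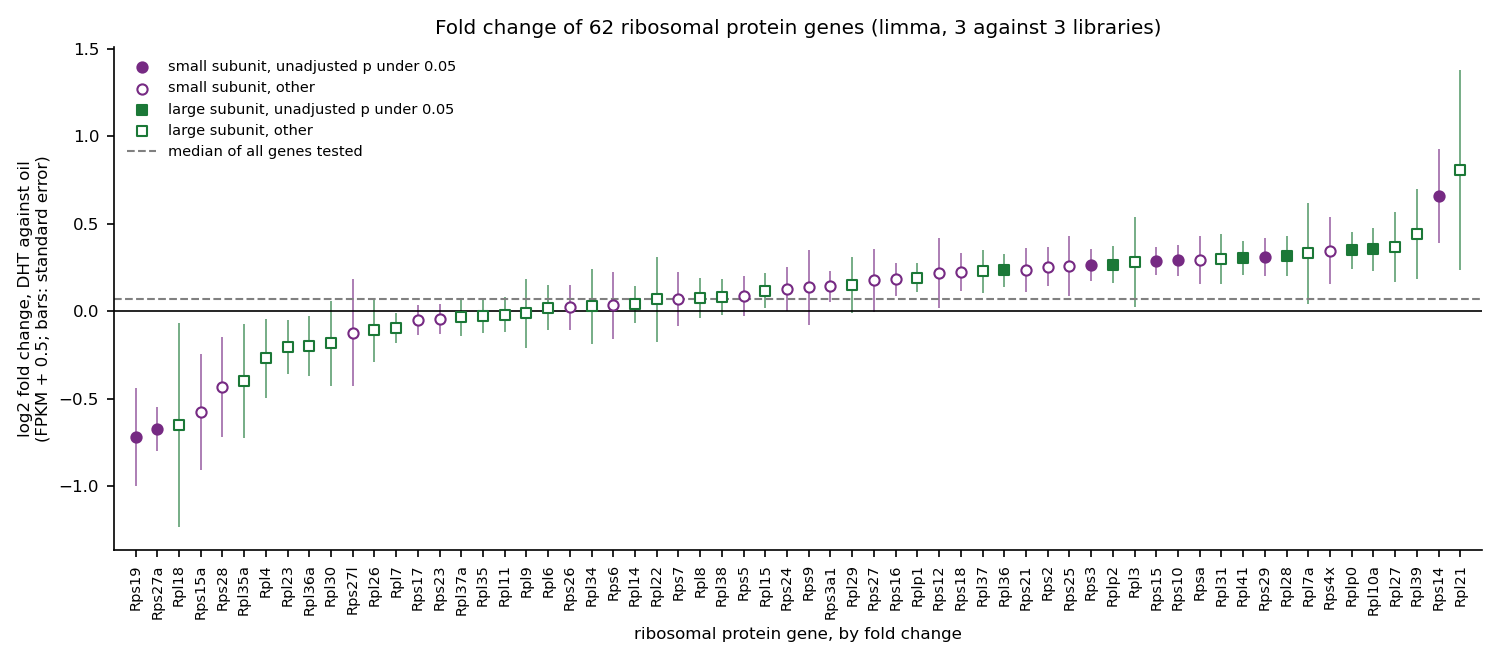
Log2 fold change of DHT against oil (on FPKM + 0.5, limma) for the 62 tested ribosomal protein genes in rising order, with the standard error as bars, circles for the small and squares for the large subunit. Filled symbols have an unadjusted p under 0.05, and none passed after adjustment. Most genes lie close to the median of all genes (dashed, 0.07), between Rps19 (-0.72) and Rpl21 (0.81).

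Rps27a stood lowest by p and in the direction opposite to most of the family. The gene (chr11:29545842-29548040 in GRCm38, minus strand) encodes a fusion of ubiquitin and a small subunit protein, which is cut apart after translation. Its values were 9.89, 8.62 and 7.64 FPKM in DHT and 14.9, 14.6 and 12.95 in oil. Each DHT library was below each oil library, with a log2 fold change of -0.67 ± 0.13 (SE, 3 against 3 libraries, limma adjusted p = 0.565). The fold change stayed between -0.76 and -0.59 under the alternatives run, and its adjusted p between 0.482 and 0.780. Most of its value came from 1 first exon (chr11:29547841-29547891), at 9.56, 8.50 and 7.16 FPKM in DHT and 12.2, 12.7 and 12.9 in oil. A second first exon (chr11:29547681-29547860) was at 0.0437, 0.112 and 0.149 FPKM in DHT and 2.64, 1.58 and 0.102 in oil, so that it was high in oil libraries 1 and 2 alone.

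Ubb, which encodes a chain of ubiquitin repeats, lay in the other direction. It was at 119.2, 108.0 and 104.1 FPKM in DHT and 95.8, 101.2 and 91.3 in oil, without overlap (log2 fold change 0.20 ± 0.10, SE, limma adjusted p = 0.665). Neither gene passed after adjustment, and the difference between Ubb and Rps27a was not tested.

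Rps19, a small subunit protein whose mutation causes Diamond-Blackfan anaemia, had the largest negative fold change. It was at 4.43, 10.2 and 5.05 FPKM in DHT and 10.1, 10.2 and 10.9 in oil (log2 fold change -0.72 ± 0.28, SE, limma adjusted p = 0.658). DHT libraries 1 and 3 were low, DHT library 2 was level with the oil libraries, and the groups overlapped. Its most used first exon was the same in all 6 libraries.

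The other 6 named lower genes overlapped between groups. Rps15a, of the small subunit, was at 3.22, 6.13 and 6.64 FPKM in DHT and 6.41, 12.1 and 6.21 in oil, where the low DHT library 1 and the high oil library 2 set the difference (-0.58). Without DHT library 1, or without oil library 2, it was -0.28. Rps28, another small subunit protein, was at 3.78, 8.25 and 8.20 FPKM in DHT and 9.53, 7.65 and 9.31 in oil, with DHT library 1 low. Its fold change of -0.43 was -0.09 without that library. Rpl35a, of the large subunit, was at 1.99, 1.43 and 4.04 FPKM in DHT and 4.13, 3.07 and 2.54 in oil, and its fold change of -0.40 was 0.04 on last exons alone. It was -0.75 without DHT library 3 and -0.13 without DHT library 2. The fold changes of Rpl4, which lines the exit tunnel (-0.27), Rpl23 (-0.21) and Rpl36a (-0.20) were smaller, with Rpl4 at 29.7 FPKM in DHT library 1 and 44.7 to 59.5 in the others. Single libraries moved these 3 as well: Rpl4 was at -0.02 without DHT library 1 and -0.41 without DHT library 3. Rpl23 was at -0.08 without DHT library 1 and -0.36 without DHT library 3, and Rpl36a at -0.03 without oil library 3 and -0.36 without oil library 1. Over these 8 genes the limma adjusted p ran from 0.565 (Rps27a) to 0.771.

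Rpl7, a large subunit protein, did not overlap either, by a small margin, and is named because it completes the count above. It was at 31.7, 31.0 and 29.7 FPKM in DHT and 32.4, 34.4 and 32.1 in oil (log2 fold change -0.10 ± 0.09, SE, limma adjusted p = 0.786).

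The 8 genes higher in DHT with the smallest p had small fold changes. Their log2 fold changes ran from 0.26 (Rps3) to 0.35 (Rpl10a), each group pair did not overlap, and their limma adjusted p ran from 0.652 to 0.658. For Rps15 (levels above) the fold change was 0.29 ± 0.08 (SE), between 0.23 and 0.31 under the alternatives run. Rplp0, which anchors the stalk, was at 31.8, 36.0 and 32.3 FPKM in DHT and 27.6, 23.8 and 27.0 in oil (0.35 ± 0.11, SE), and 0.08 on last exons alone. Rpl41, one of the shortest proteins known, was at 49.3, 49.7 and 57.8 FPKM in DHT and 42.3, 41.9 and 42.3 in oil.

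Rpl10a, of the L1 stalk through which used tRNA leaves, was at 36.3, 34.8 and 29.9 FPKM in DHT and 28.4, 26.9 and 23.4 in oil. Rps29, a small zinc-binding protein of the small subunit, was at 22.9, 19.5 and 21.1 FPKM in DHT and 15.7, 17.2 and 17.99 in oil. Rps3, at the site where mRNA enters, was at 25.1, 25.8 and 24.8 FPKM in DHT and 22.4, 20.3 and 20.3 in oil. In Rpl10a and Rps29 the lowest DHT library lay above the highest oil library by a small margin, and in Rps3 by more (24.8 against 22.4 FPKM). Rpl28, of the large subunit, was at 16.1, 15.3 and 14.98 FPKM in DHT and 11.8, 14.1 and 11.2 in oil, also with a small margin.

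Rps10, which is marked with ubiquitin when ribosomes stall, rested on events outside the gene. It was at 60.3, 61.2 and 59.4 FPKM in DHT and 50.3, 51.9 and 45.7 in oil, but its assembled locus spans 11.1 times the RefSeq gene and its most used first exon lies 11749 bases from the RefSeq start. The first and last exons that touch the RefSeq bounds gave 19.9, 22.2 and 21.99 FPKM in DHT and 16.3, 16.3 and 22.04 in oil, 36.1% of the value, and these overlapped (0.24 ± 0.14, SE, limma adjusted p = 0.705). On last exons alone the fold change was -0.27. Rpl3, which reaches to the peptidyl transferase centre, was the only other tested gene with under 90% of its value within its bounds (72.9%). Its fold change of 0.28 was -0.09 within the bounds, with 58.2, 41.9 and 24.5 FPKM in DHT and 57.9, 26.4 and 46.9 in oil. Over all events it was 0.04 without oil library 2 and 0.52 without oil library 1.

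The stalk proteins and Rpsa all lay higher in DHT. Rplp2, the partner of Rplp1 in the stalk, was at 14.5, 15.9 and 14.6 FPKM in DHT and 11.7, 13.7 and 11.7 in oil. Its groups did not overlap, as in Rplp0, Rplp1 and Rpsa, where 12% of all genes lay higher without overlap. The log2 fold changes of Rplp0, Rplp1, Rplp2 and Rpsa were 0.35, 0.19, 0.27 and 0.29, with limma adjusted p from 0.652 to 0.658. After centring they were 0.29, 0.13, 0.20 and 0.23. The unadjusted p was under 0.05 for Rplp0 and Rplp2, where 5.79% of all genes were higher at that p. The fold change of Rplp0 was 0.08 on last exons alone, and that of Rpsa was 0.16 without oil library 3 and 0.40 without oil library 1. These 4 are members of the 62 and add no count of their own.

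The widest spreads, named here after their values were seen, were within groups. Rpl18, of the large subunit, was at 3.06, 3.40 and 15.3 FPKM in DHT and 13.5, 7.50 and 7.06 in oil, with the highest coefficient of variation (66.8%). Its first exon (chr7:45718071-45718139) was at 14.9 FPKM in DHT library 3 and 12.8 in oil library 1 and at most 1.19 in the others, in which other first exons led. Rpl21, also of the large subunit, was at 11.6, 10.2 and 14.4 FPKM in DHT and 12.3, 10.2 and 2.12 in oil, and oil library 3 was far below the other 5 (log2 fold change 0.81). In 53 of the 62 genes the same first exon led in all 6 libraries.

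Several genes of this family have a close copy, in some cases used in few tissues. The copies Rpl3l, Rpl39l and Rps27l were low or listed at 0. Rpl10l, Rpl36al and Rps4l had no identifier in the event tables and so no value. A listed 0 need not mean a gene without reads. Rpl5, which every cell uses, is also listed at 0, but its identifier holds only a locus on the opposite strand. No locus under another identifier was matched at the place of Rpl3l or Rpl39l. Rpl3l, the muscle form of Rpl3, was listed at 0.141 FPKM in DHT library 2 and at 0 in the other 5. Rpl39l, the testis form of Rpl39, was listed at 0 in all 6 libraries, while Rpl39 was at 5.76, 6.29 and 6.09 FPKM in DHT and 2.62, 5.34 and 5.60 in oil, where oil library 1 was low. Rps27l, a target of p53, was at 1.72, 3.46 and 1.66 FPKM in DHT and 1.58, 2.74 and 3.16 in oil, and Rps27 at 21.6, 22.3 and 21.7 and at 24.3, 14.6 and 20.3. In both pairs the usual form was the higher one in each library. Rps4x was at 18.4, 26.9 and 16.2 FPKM in DHT and 17.1, 14.2 and 15.7 in oil. Rpl36a, at 5.94, 5.41 and 6.01 FPKM in DHT and 5.31, 6.62 and 8.59 in oil, changed sign to 0.01 with DHT library 2 and oil library 3 left out. Reads shared between near-identical copies and pseudogenes could be split by the counting, so these low values are uncertain.

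The 25 genes outside the test were mostly a matter of which identifier a locus bears. Of the 5 with an identifier under the filter, Rpl39l, Rpl5 and the pseudogene Rps3a2 were listed at 0 in all 6 libraries. Rpl3l was above 0 in 1 library and Rpl27a in 1 (0.243 FPKM in oil library 1). The identifiers of Rpl5, Rpl27a and Rps12 held only a locus on the strand opposite to the gene. The loci at the places of Rpl5, Rpl27a, Rps12 and 10 genes with no identifier of their own were carried under another identifier, and 10 of these 13 identifiers are snoRNAs in RefSeq. A locus was matched by position where it and the RefSeq gene covered at least 50% of each other.

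Read by position, these 13 genes had means between 6.81 and 56.5 FPKM. Rpl5, which binds 5S RNA, was listed at 0 under its own identifier, and the locus under the snoRNA identifier Gm26387 (chr5:107900502-107909005) was at 24.2, 24.4 and 23.7 FPKM in DHT and 23.6, 26.1 and 25 in oil. Rps12 was at 0.784 to 1.68 FPKM under its own identifier and at 19.2, 31.3 and 13.8 FPKM in DHT and 30.6, 29.5 and 27.1 in oil under Gm23130. Rpl27a was at 27.2, 30.01 and 24.2 FPKM in DHT and 26.2, 26.8 and 25.6 in oil under Snora3. The exact zeros of Rpl5 and Rpl27a thus do not stand for a gene without reads.

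Others read in this way were Rpl10 (under Snora70), Rpl12 (Snora65), Rpl17 (Snord58b), Rpl19 (Gm27597), Rpl23a (Snord42b), Rpl32 (Snora7a) and Rps13 (Snord14a). Rpl19 was at 57.6, 63.1 and 60.2 FPKM in DHT and 27.8, 62.6 and 67.7 in oil, with oil library 1 low, and Rpl17 was low in the same library (13.1 FPKM against 27.6 to 29.9 in the others). The median log2 fold change of the 13 was 0.04, with 7 higher. With them, 74 genes had a median of 0.09, and 12 were higher and 2 lower at an unadjusted p under 0.05.

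**Figure D4:**
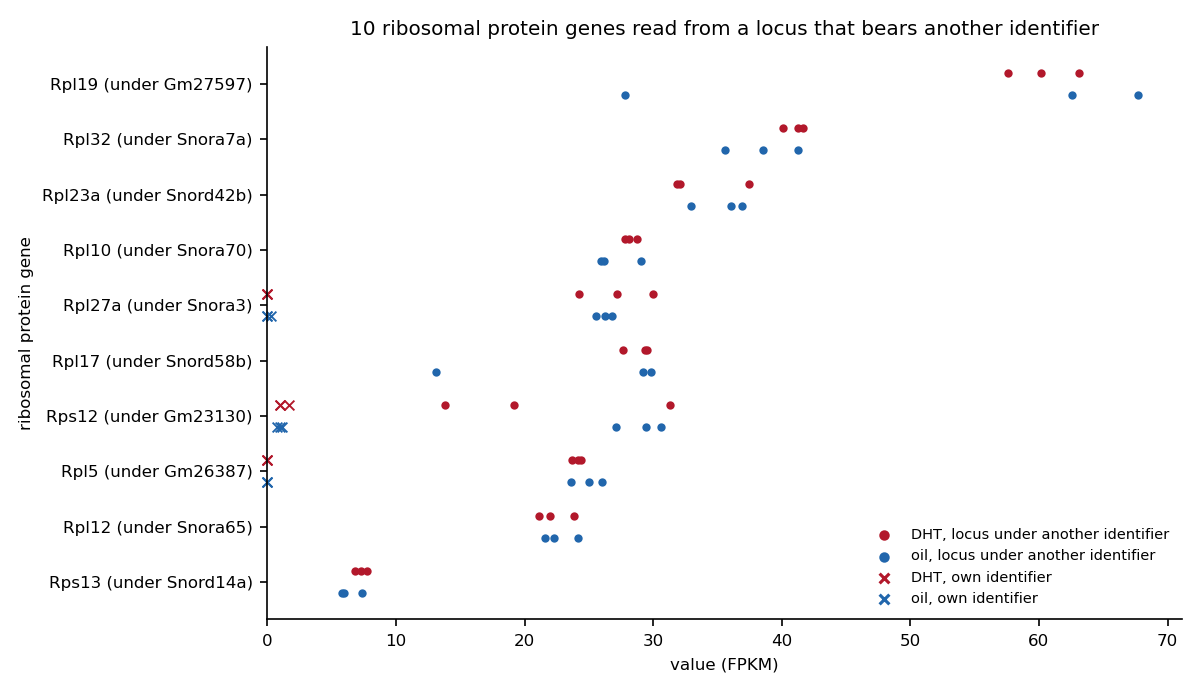
Values in FPKM of 10 ribosomal protein genes whose locus bears another identifier (named in brackets), with 1 dot per library (red for DHT, blue for oil, n = 3 each) and crosses for the gene's own identifier where there is one. Rpl27a, Rpl5 and Rps12 lie at or near 0 under their own identifier and between 13.8 and 31.3 FPKM at their place.

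Of the remaining genes with no identifier, 7 lie in a larger locus of another gene, so their own value cannot be told apart from it. These were Rpl13a (in the locus of Flt3l), Rpl24 (Zbtb11), Rps20 (Gm24016), Rpl36al (Pole2), Rpl32l (Map7) and the pseudogenes Rps3a3 (Pde4d) and Rps4l (Tmtc1). Rpl10l, Rpl13 and the pseudogene Rpl6l had no event at their place.

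Splicing of the family was compared through pairs of events that differ by 1 exon or intron, for pairs that sum to at least 5 FPKM on average. Rps24, whose short exons near the end change the tail of the protein, is the known case. Its 18-base exon (chr14:24494052-24494069) was included at 20.7%, 7.08% and 2.76% in DHT and 1.55%, 7.18% and 11.6% in oil. Its 20-base exon (chr14:24495430-24495449) was included at 96.0%, 92.2% and 98.9% in DHT and 97.5%, 93.4% and 91.9% in oil. Both overlapped between groups. A multi-exon pair of Rps24 (chr14:24494052-24495449) compares transcripts holding both exons with those holding neither, and leaves out transcripts with only 1 of them. It summed to 7.27 FPKM on average, against 56.6 for the pair of the 18-base exon, so its share is not one of all Rps24 transcripts. Within this pair the share with both exons was 86.2%, 47.6% and 71.8% in DHT and 38.0%, 52.2% and 60.2% in oil, and overlapped too. Of 19 pairs that differ by 1 exon, in 12 genes, 0 lay between 10% and 90% on average.

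Introns of these genes were seldom kept. Over 30 intron pairs in 22 genes the median share with the intron was 0.282%, and it was 2.18% over 2485 pairs of other genes. A mean over 10% was found in 3 of the 30 and in 19.2% of the other pairs. Those 3 were in Rpl3, with 2 overlapping pairs, and in Rpl7a. Intron lengths given here are those of the event, whose coordinates include the bordering exon base at each end. The Rpl7a intron of 188 bases was kept at 35.5%, 6.99% and 22.7% in DHT and 10.1%, 18.04% and 56.0% in oil. In 2 of the 30 pairs the share was higher in each DHT library than in any oil library, where 1.63% of all 2515 pairs lay so. These were an Rps21 intron of 106 bases, at 0.508%, 0.204% and 0.918% in DHT and 0.178%, 0.198% and 0.159% in oil, and an Rpl3 intron of 517 bases. The Rpl3 intron was at 0.0430%, 0.0576% and 1.61% in DHT and 0.0113%, 0.0170% and 0.0206% in oil, so both were nearly always removed. The Rps18 intron of 92 bases, named after its values were seen, was kept at 21.3%, 31.1% and 0.0760% in DHT and at 0.0745% to 1.38% in oil, so DHT libraries 1 and 2 were high and the groups overlapped.

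**Figure D5:**
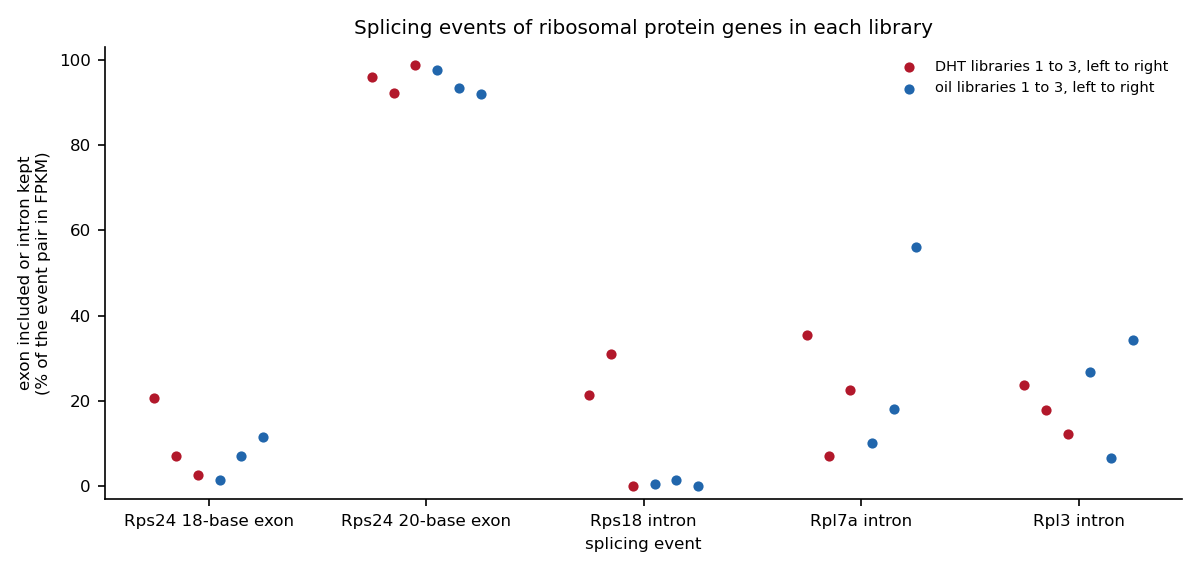
Share of the event pair with the exon included or the intron kept, in % of the pair's FPKM, for 5 events of ribosomal protein genes, with libraries 1 to 3 of DHT (red) and of oil (blue) from left to right. The Rps24 20-base exon is included at 91.9% or more in each library, and the Rps18 intron is over 20% in DHT libraries 1 and 2 alone.

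Circular RNAs were read in the same libraries, with 43512 to 55325 back-splice junction reads in each. None was listed with a ribosomal protein gene as its host, and none lay within 100 bases of the bounds of one (0 in the 6 lists, which hold circular RNAs of at least 2 reads).

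Genes that make, feed or control the ribosome are given from lists, none of whose members passed an adjusted p of 0.05 in limma. Counts below are at an unadjusted p under 0.05, where 5.79% of all genes were higher and 1.55% lower. Of 6 genes for ribosomal and related proteins outside the symbol rule (Mrto4 among them), 0 were higher or lower. Rack1, a scaffold on the small subunit, was at 20.2, 15.4 and 15.1 FPKM in DHT and 14.8, 14.2 and 14.6 in oil, which did not overlap by a narrow margin. Of 13 genes of RNA polymerase I, which makes ribosomal RNA, 0 were higher or lower (median log2 fold change 0.00).

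Pre-rRNA processing and ribosome assembly were read from 47 genes, 4 of them higher and 0 lower (median 0.01). Rrp1, a nucleolar assembly factor, was at 53.5, 48.8 and 52.6 FPKM in DHT and 34.4, 44.95 and 33.1 in oil. Bop1, of a complex needed for the large subunit, was at 6.36, 5.94 and 5.82 FPKM in DHT and 4.48, 4.43 and 5.04 in oil. Neither overlapped, with log2 fold changes of 0.47 and 0.35. Nmd3 (-0.22), which exports the large subunit, and Tsr1 (-0.20) overlapped.

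Elongation factors went both ways: of 8, 2 were higher and 2 lower, and the median was -0.29 with 3 above 0 and 5 below. Eef2, which moves the ribosome along the mRNA, was at 91.8, 86.8 and 86.0 FPKM in DHT and 81.0, 71.9 and 69.9 in oil. Eef1g, a subunit of the exchange factor of elongation factor 1, was at 26.6, 28.0 and 22.2 FPKM in DHT and 31.2, 33.1 and 34.1 in oil. The groups overlapped in neither, with Eef2 higher (0.25) and Eef1g lower (-0.36) in DHT. Eif5a (0.34) and Eef1d (-0.78) were the other 2. Of 19 other TOP mRNAs 2 were higher and 2 lower (median 0.08). The higher ones were Eef2 and the initiation factor Eif3k, and the lower ones Eef1g and Eef1d, all of which the lists of elongation and initiation factors also count.

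Of 31 initiation factors 4 were higher and 1 lower (median 0.06), led by Eif4g1, the scaffold of the cap complex, at 24.1, 24.3 and 22.7 FPKM in DHT and 16.1, 20.1 and 17.8 in oil. Eif3k (0.35) was next, and the lower one was Eif3m (-0.71). Eif2s2 was at -0.23, overlapped between groups and had an unadjusted p above 0.05. Of 23 genes of mTORC1 and TOP control 2 were higher and 0 lower (median 0.11). Akt1s1, which encodes the mTORC1 inhibitor PRAS40, was at 5.69, 7.34 and 6.50 FPKM in DHT and 2.76, 3.75 and 5.12 in oil, without overlap (0.71 ± 0.21, SE, limma adjusted p = 0.652). Lamtor5 was at 0.30. Mlst8 was at -0.34, with overlap, and Cnbp, which binds TOP mRNAs, at -0.18, without overlap, both with an unadjusted p above 0.05.

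Of 9 ribosome quality control genes, 1 was higher (Zfp598, which senses collided ribosomes, 0.30) and 1 lower (Nemf, -1.33). The list of mitochondrial ribosomal proteins held 69 tested genes, 4 of them higher and 1 lower. Its median was 0.07, and 45 had a fold change above 0. Mrpl38 was at 4.08, 3.52 and 2.96 FPKM in DHT and 2.172, 2.24 and 2.18 in oil, the largest named difference of that list (0.57 ± 0.13, SE, limma adjusted p = 0.652). Mrpl24 (0.36) was the next higher one, and Mrps9 (-0.43) the lower one. Mrps30 was at -0.44, overlapped between groups and had an unadjusted p above 0.05.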

How the data were processed

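For each of 6 libraries the authors deposited a table of 315379 events (first exons, last exons and splicing events of assembled loci) with an FPKM value each, per the file headers, and a list of circular RNAs with back-splice junction read counts. In the submitters' processing notes, cutadapt, BWA, bcl2fastq 2.17.1.14 and HISAT2 2.0.1 are named with no role, and the sources used here do not give the assembler, the circular RNA caller or a strand setting. Overlapping and antisense genes therefore cannot be told apart. The notes name mm9, but 99.4% of 27890 loci lay on the GRCm38 bounds of their gene in RefSeq, so coordinates are treated as GRCm38.

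Identifiers were matched to symbols (99.7% of 32348). A gene value is the larger of the first-exon and last-exon sums of a locus, added over loci of 1 identifier. All 11368 genes averaging 0.5 FPKM or more entered 1 limma fit of log2(FPKM + 0.5) (limma 3.58.1 in R 4.3.3, trended empirical Bayes, two-sided, Benjamini-Hochberg), and the added 0.5 makes fold changes of low genes look smaller. The fit was also run on simulated data with changes of known size. The outcome of that run is not given, and no result here rests on it. A count model for circular RNAs was not run because none had a ribosomal protein host. Tables and plots were made with matplotlib 3.10.9, numpy 2.4.6, pandas 2.3.3 and Python 3.11.15.

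The members and lists were chosen with earlier results of these data known. Named genes are Rps27a and members past an adjusted p of 0.05, up to 8 in each direction with the smallest p, the 8 highest, paralogue pairs and the stalk proteins with Rpsa, and in each list 2 per direction with the smallest p. Alternatives were other pseudocounts, filters, event sums, centring, no trend and leaving out libraries. Chosen after seeing the data were the fullest event of a locus, leaving out DHT library 2 and oil library 3 together, reading 13 genes by position, leaving out long loci, and exons within the RefSeq bounds. Some genes are not reported here by name.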

Additional observations from a re-analysis of the deposited data

How the results depend on the processing

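No ribosomal protein gene passed an adjusted p of 0.05 in limma under any of the 19 alternatives run. Over all genes, 2 were called, 1 with a pseudocount of 0.1 FPKM, with a mean of at least 2 FPKM or with DHT library 2 and oil library 3 left out, 0 on first exons, last exons or the fullest event, and 0 to 4 with 1 library left out. The 13 ribosomal protein genes under an unadjusted p of 0.05 became 6 with centring (4 higher, 2 lower), 4 without DHT library 2 and oil library 3, and 7 to 13 with 1 library left out. Their median log2 fold change of 0.132 was 0.082 on last exons, 0.070 with centring, 0.089 with 13 genes read by position, and 0.086 (without oil library 2) to 0.145 with 1 library left out. The causes were not tested. Of 457 values of 27 named genes, 448 kept direction and side of the threshold. Reversed were, on last exons, Rpl3 (-0.06), Rpl35a (0.04) and Rps10 (-0.27), within the RefSeq bounds Rpl3 (-0.09), and without DHT library 2 and oil library 3 Rpl36a (0.01). With 1 library left out Rps27 ran from -0.02 to 0.34 and Rps27l from -0.41 to 0.04. No paired analysis was possible because the labels give the groups no shared replicate numbers. No circular RNA had a ribosomal protein host, so its count model and the alternatives to it gave no value. Depth behind FPKM is unknown, so counting error cannot be set apart from other spread.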

Other observations

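Some genes of translation, set side by side after their values were seen and with no test of the likeness, had low values in DHT libraries 1 and 3 and a DHT library 2 near the oil libraries. Rps19 was at 4.43, 10.2 and 5.05 FPKM in DHT and 10.1 to 10.9 in oil. Eif3m, of initiation factor 3, was at 3.87, 8.66 and 3.995 FPKM in DHT and 8.36, 8.46 and 9.52 in oil. Nemf, which marks peptides of stalled ribosomes, was at 1.93, 6.09 and 0.857 FPKM in DHT and 6.54, 6.35 and 6.70 in oil. Rps12 read by position was at 19.2, 31.3 and 13.8 FPKM in DHT and 27.1 to 30.6 in oil.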
